A study of Arabidopsis thaliana with 14 samples.

Results

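RNA-directed DNA methylation (RdDM) and maintenance methylation keep transposons and repeats silent in Arabidopsis thaliana. The genes that encode this machinery were followed here in seedlings of 5 mutants and their Col-0 wild type. The set holds 39 of the 32548 genes deposited, chosen by name for what their products do, with earlier results of these data known. It covers 5 subunits or assembly factors of RNA polymerases IV and V, 5 genes that recruit Pol IV, 3 of small RNA synthesis, 3 Argonautes, 4 binders of Pol V transcripts, 4 genes of the DDR complex and its partners, 6 MORC ATPases, 2 de novo methyltransferases and 7 genes of maintenance methylation.

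RNA was taken from 1 g of seedlings grown for 11 days on MS plates, with 16 h of light at 23 °C and 8 h of dark at 21 °C, and was sequenced as single reads of 50 nt. The first table holds the fve mutant, the suvh2/9 mutant and Col-0 (replicates 1 and 2). The second holds the rrm1 mutant, the pdp1/2/3 mutant, the quadruple mutant pdp1/2/3;rrm1 and a further Col-0 (replicates 3 and 4). Each of the 7 groups has 2 libraries, 14 in all. The labels give the mutants by these names, without alleles, loci or the number of independent lines. They do not say whether replicates were grown separately, so a p-value here speaks only of how these libraries vary. Because Col-0 is numbered 3 and 4 and its mutants 1 and 2 in the second table, whatever else the numbering may stand for and the genotype cannot be told apart there.

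Pol IV transcribes repeats into short RNAs, which RDR2 makes double-stranded, DCL3 cuts into small interfering RNAs and HEN1 methylates at their ends. An Argonaute such as AGO4 carries the small RNA to a nascent transcript of Pol V, and the methyltransferase DRM2 then methylates the DNA below. MET1, CMT3 and CMT2 maintain methylation, and the remodeller DDM1 and the VIM proteins also take part in maintenance. FVE, a WD-repeat protein that binds histones, is known from the autonomous flowering pathway, SUVH2 and SUVH9 bind methylated DNA and bring Pol V to its targets, and the PDP proteins carry a PWWP domain.

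Levels are adjusted counts per 1e+06 of the common total of a table (CPM), with mean ± SD over 2 libraries. The libraries of the first table held 21259805 to 21722950 adjusted counts and those of the second 18609045 to 19534578. An adjusted count of 1 is thus 0.0465 or 0.052 CPM, and a count of 0 allows up to 0.14 or 0.156 CPM per library (3 counts, counting error only). Differences are log2 differences of the level plus 1, which understates the change of low genes, and a gene was called at an adjusted p below 0.05 over all genes tested. The tables were normalised separately and only libraries of the same table were tested against each other. FVE averaged 15.3 CPM in fve and 66.5 in Col-0, and SUVH9 averaged 1.03 in suvh2/9 and 41.7 in Col-0, while SUVH2, at 7.31 in suvh2/9 against 9.46 in Col-0, did not pass. The rrm1 and pdp1/2/3 mutations could not be checked because the labels name no locus for them. Between 0.5 and 10 adjusted counts, 72.8% of the values of rrm1 replicate 1 and 90% of those of quadruple-mutant replicate 1 lay within 0.2 of a whole number, against 99.8% to 100% in the other 12 libraries. The 5 leaf markers summed to 32721 to 43001 CPM per library and the 3 pollen markers to 0 to 0.151.

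Few genes of the machinery were called in any mutant against Col-0. In fve, 2 of 35 tested members were called (5.71%), against 1.89% of all 19090 genes tested, and both were higher. In suvh2/9 it was 1 of 35 (2.86%), against 0.571% of all genes. In rrm1 it was 3 of 34 (8.82%), against 4.03% of the 19241 genes tested, with 2 higher and 1 lower. In pdp1/2/3 it was 4 of 34 (11.8%), against 18.3%, and in the quadruple mutant also 4 of 34 (11.8%), against 17.8%, all of them higher. The share of members was thus above that of all genes in fve, suvh2/9 and rrm1, and under it in pdp1/2/3 and the quadruple mutant. These shares rest on 1 to 4 calls a mutant, and whether they differ from those of all genes was not tested. The median difference of the tested members was 0.02 in fve, 0.02 in suvh2/9, 0.00 in rrm1, 0.09 in pdp1/2/3 and 0.01 in the quadruple mutant, beside -0.01, 0.00, 0.01, -0.01 and 0.00 over all genes. The calls fell on 7 genes: MORC1, MORC2 and MORC6, FDM1 and FDM2, CLSY2 and CMT2. In bulk tissue, fewer cells of a type and less RNA per cell cannot be told apart.

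**Figure D1:**
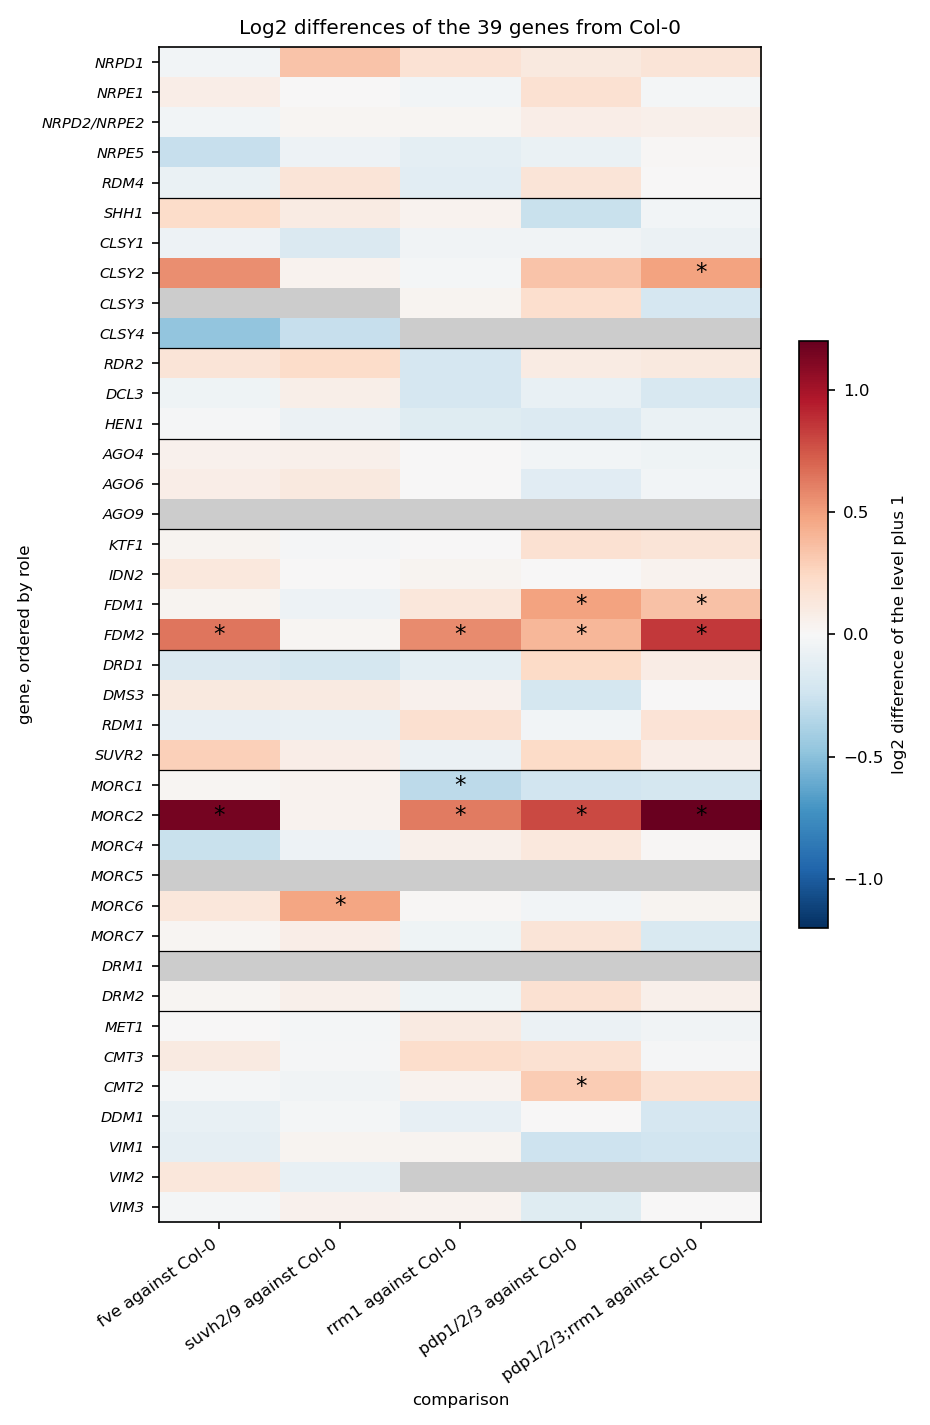
Log2 difference of the level plus 1 of the 39 members (rows, ordered by role) in 5 mutants against the Col-0 of their table (columns), with red for higher and blue for lower in the mutant. Asterisks mark calls at an adjusted p below 0.05 and grey marks genes under the filter on low values. MORC2 and FDM2 carry asterisks in every column except suvh2/9.

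Among the members, level per length differed widely in Col-0. Divided by exon length, the highest mean level in the first table was that of AGO4, the main Argonaute of RdDM, at 23.8 CPM per kb, followed by IDN2 and VIM1 (13.4 each), MET1 (12.9) and NRPE5 (11.7). In Col-0 of the second table AGO4 was again highest at 17.2 CPM per kb, followed by IDN2 (11.9), NRPE5 (11.3), MET1 (9.86) and MORC1 (9.62). The lowest in both tables were DRM1 (0 in the first and 0.0134 in the second), MORC5 (0.0434 and 0.0587) and AGO9 (0.0979 and 0.0679). CLSY3 came next in the first table (0.147 CPM per kb), and in the second CLSY4 did (0.171), just below CLSY3 (0.193). MORC2, at 1.28 and 1.48 CPM per kb in Col-0, stood well below its neighbour MORC1 at 8.18 and 9.62.

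**Figure D2:**
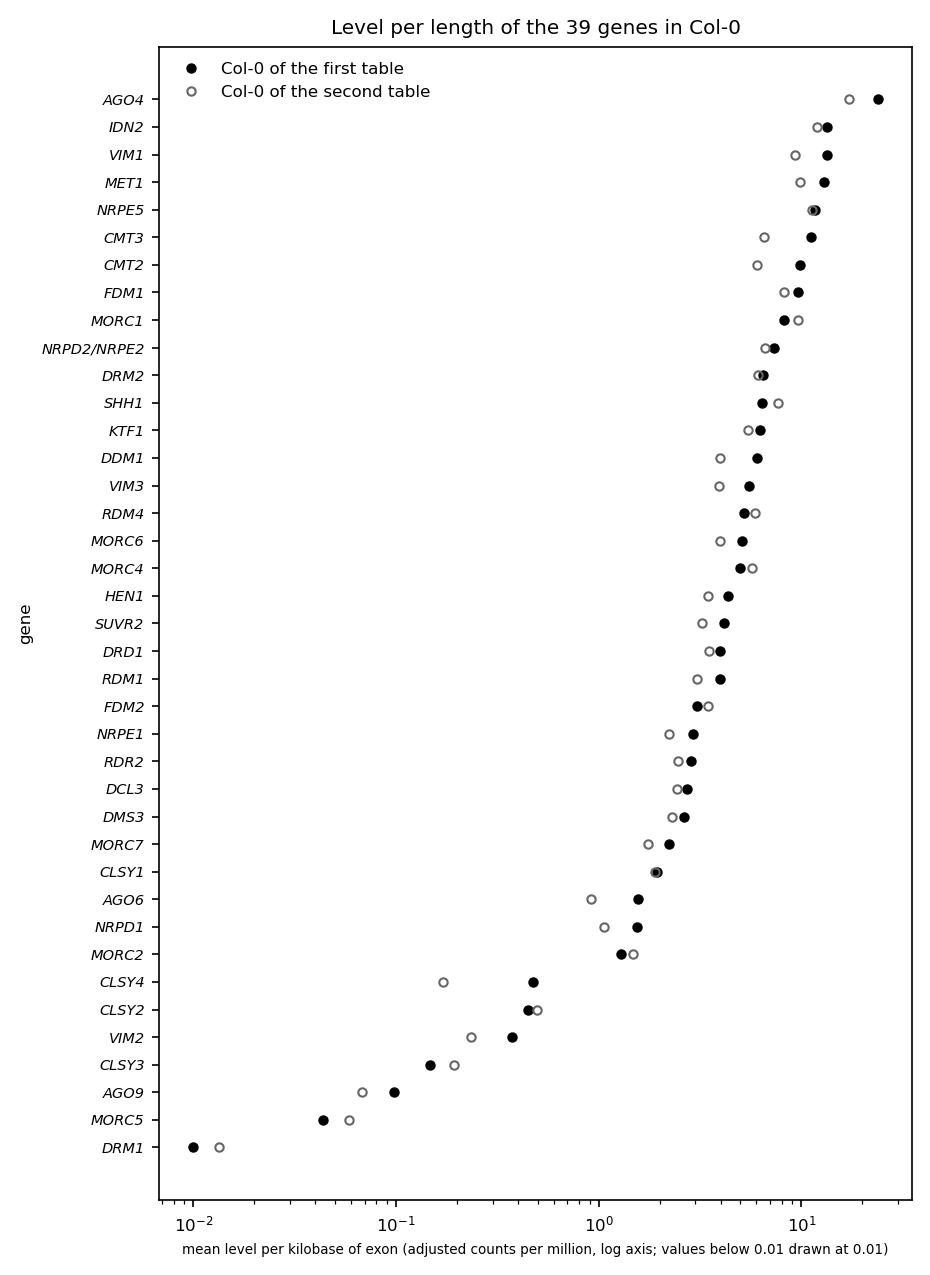
Mean level per kilobase of exon (log axis, CPM per kb, 2 libraries per point) of the 39 members in Col-0 of the first table (filled) and of the second table (open), ordered by the first. AGO4 is highest at 23.8 and 17.2 CPM per kb, and DRM1, listed at 0 in the first table and drawn there at 0.01, is lowest.

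MORC2 showed the largest difference of any tested member in fve, rrm1, pdp1/2/3 and the quadruple mutant. MORC proteins are GHKL-type ATPases that act in silencing with or downstream of RdDM. MORC2 (AT4G36280) lies on chromosome 4, from 17165253 to 17169375 on the minus strand of TAIR10.1, and its exons sum to 2239 bases. MORC2 stood at 7.56 and 7.66 CPM in fve, against 3.03 and 2.72 in the Col-0 of the first table. Both fve libraries lay above both Col-0 libraries, and the mean was 7.61 ± 0.0715 in fve and 2.87 ± 0.217 in Col-0, a ratio of 2.65 (log2 1.15, SE 0.13, adjusted p = 0.000902). In suvh2/9 MORC2 was at 3.38 and 2.64 CPM, overlapping Col-0 (log2 0.04, 95% interval -0.25 to 0.33, adjusted p = 0.999). Tested directly, MORC2 was higher in fve than in suvh2/9 (log2 1.11, adjusted p = 0.00109).

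In the second table MORC2 stood at 5.39 and 5.80 CPM in rrm1, at 7.12 and 5.80 in pdp1/2/3, at 9.66 and 8.08 in the quadruple mutant, and at 3.54 and 3.07 in Col-0. All 6 mutant libraries lay above both Col-0 libraries. The mean was 6.46 ± 0.935 in pdp1/2/3 and 8.87 ± 1.12 in the quadruple mutant, against 3.31 ± 0.331 in Col-0, or 1.95 and 2.68 times the level (log2 0.79 and 1.19, SE 0.13 each, adjusted p = 0.00147 and 0.000105). In rrm1 the mean was 5.59 ± 0.288, or 1.69 times that of Col-0 (log2 0.62, SE 0.13, adjusted p = 0.0253). The rrm1 call was lost in 6 of 15 alternatives. Among them were the fit without the filter on low values (adjusted p = 0.0977) and those without any 1 of the rrm1 or Col-0 libraries (log2 0.54 to 0.69). MORC2 was also higher in the quadruple mutant than in rrm1 (log2 0.58, adjusted p = 0.0208). This call was lost in 5 of 16 alternatives, among them the fit without the filter on low values (adjusted p = 0.076). It was also lost without rrm1 replicate 1 (log2 0.53) or 2 (log2 0.62) or quadruple-mutant replicate 1 (log2 0.46). Between the quadruple mutant and pdp1/2/3 the difference did not pass (log2 0.40, adjusted p = 0.15), nor did the interaction of rrm1 and pdp1/2/3 (log2 -0.21, adjusted p = 0.728). Comparisons within a table share its Col-0 libraries and are not independent.

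MORC2 is the middle gene of a tandem of MORC genes on the minus strand. MORC1 (AT4G36290, 17169385 to 17173361) lies upstream of it, with 9 bases between them, and MORC3 (AT4G36270, 17161024 to 17165241), which is not a member, lies downstream with 11 bases between. The 250 bases upstream of MORC2 are therefore almost wholly inside MORC1. Of the 50-base windows along its exons, 4.72% also occur in another gene, most of them in MORC3, and 2.26% of those of MORC1 do. Neither neighbour was called in fve. MORC1 was at 20.4 and 19.0 CPM in fve, against 19.6 and 19.1 in Col-0 (log2 0.02, adjusted p = 0.93). MORC3, with a mean of 8.49 ± 0.194 CPM in fve against 6.76 ± 0.943 in Col-0, did not pass (log2 0.30, adjusted p = 0.264), nor did it in rrm1 (0.23), pdp1/2/3 (0.13) or the quadruple mutant (0.17).

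In the second table MORC1 lay below Col-0 in each mutant. MORC1, known for its part in gene silencing and in disease resistance, stood at 17.9 and 18.4 CPM in rrm1, at 19.1 and 19.5 in pdp1/2/3, at 19.1 and 20.1 in the quadruple mutant, and at 23.0 and 22.5 in Col-0. All 6 mutant libraries lay below both Col-0 libraries. MORC1 fell in rrm1, with a mean of 18.1 ± 0.383 against 22.8 ± 0.373 in Col-0 (log2 -0.31, SE 0.08, adjusted p = 0.0472), and this call was lost in 8 of 15 alternatives, among them without rrm1 replicate 1 (0.257) or 2 (0.138) or Col-0 replicate 3 (0.254) or 4 (0.212). In pdp1/2/3 (log2 -0.23, adjusted p = 0.0665) and in the quadruple mutant (log2 -0.21, adjusted p = 0.0921) it did not pass.

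MORC6, an ATPase of RdDM that pairs with MORC1 or MORC2, was the single member called in suvh2/9. MORC6 stood at 19.2 and 18.6 CPM in suvh2/9, against 12.6 and 14.2 in Col-0, with no overlap. The mean was 18.9 ± 0.462 in suvh2/9 and 13.4 ± 1.07 in Col-0, a ratio of 1.41 (log2 0.47, SE 0.09, adjusted p = 0.0388). The call was lost in 9 of 13 alternatives, among them each of the 6 that leave out a library (adjusted p = 0.0596 to 0.447). In fve MORC6 was at 15.2 and 14.4 CPM (log2 0.14, adjusted p = 0.54), and fve and suvh2/9 did not differ past the threshold (log2 -0.33, adjusted p = 0.0898). In the second table MORC6 was 9.85 to 11.4 CPM in all 8 libraries.

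The other tested MORC members, MORC4 and MORC7, were not called in any comparison (limma, with MORC4 alone at an unadjusted p below 0.05, in fve against Col-0 and against suvh2/9). MORC4 was at 12.6 and 13.3 CPM in fve, against 15.6 and 16.1 in Col-0 (log2 -0.27, adjusted p = 0.163), and MORC7 at 6.45 and 6.37 in fve and 6.19 and 6.42 in Col-0. MORC5 was under the filter on low values in both tables, with 0 to 0.372 CPM.

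**Figure D3:**
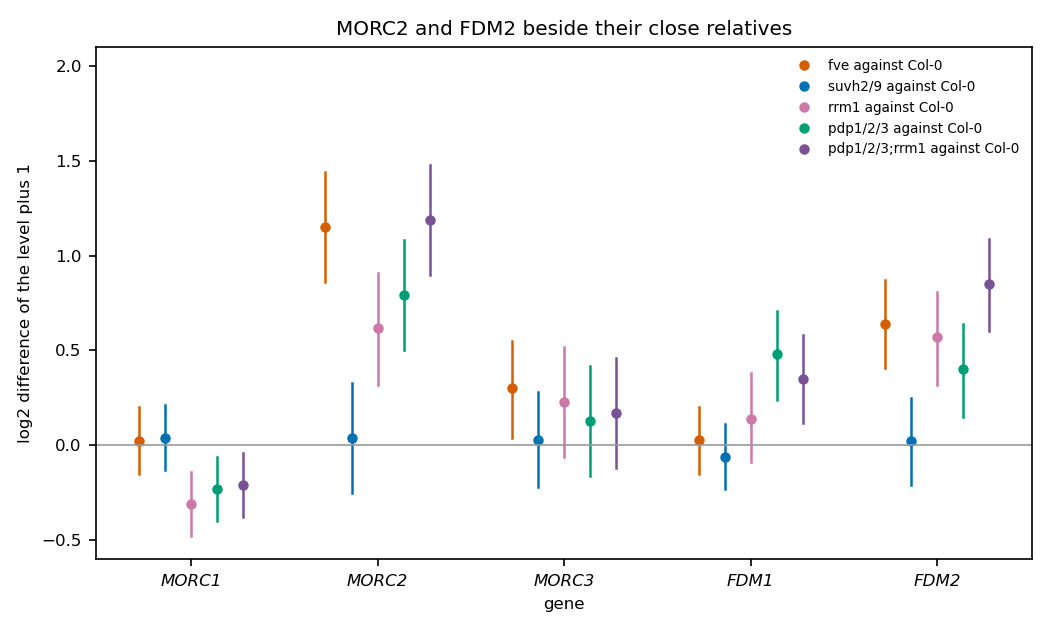
Log2 difference of the level plus 1 (y axis) of MORC2 and FDM2 and of their close relatives MORC1, MORC3 and FDM1 in each mutant against the Col-0 of its table. Points are the fitted differences and bars their 95% intervals. Outside suvh2/9 the MORC2 points lie at 0.62 to 1.19 and those of FDM2 at 0.40 to 0.85, and in suvh2/9 they lie at 0.04 and 0.02.

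FDM2 was the other member that was called in the same 4 mutants. FDM1, FDM2 and IDN2 are double-stranded RNA-binding proteins with XH and XS domains that act with Pol V transcripts. FDM2 (AT4G00380, chromosome 4, 167497 to 171010, plus strand) stood at 12.2 and 10.9 CPM in fve, at 7.51 and 6.82 in suvh2/9 and at 6.92 and 7.22 in Col-0. The fve libraries lay above the other 4, and suvh2/9 overlapped Col-0. The mean was 11.6 ± 0.893 in fve and 7.07 ± 0.211 in Col-0, a ratio of 1.64 (log2 0.64, SE 0.11, adjusted p = 0.00894), and in suvh2/9 the difference was 0.02 (95% interval -0.21 to 0.25, adjusted p = 0.999). The fve call was lost in 5 of 13 alternatives. They were the fit without the filter on low values (adjusted p = 0.0843) and those without either fve or either Col-0 library (log2 0.57 to 0.71). FDM2 was higher in fve than in suvh2/9 (log2 0.62, adjusted p = 0.00897). This call was lost in 3 of 13 alternatives: without the filter on low values (adjusted p = 0.0755) and without fve replicate 1 (log2 0.55) or 2 (log2 0.69).

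In the second table FDM2 stood at 11.5 and 13.2 CPM in rrm1, at 10.3 and 11.5 in pdp1/2/3, at 16.1 and 14.4 in the quadruple mutant and at 8.57 and 7.47 in Col-0. All 6 mutant libraries lay above both Col-0 libraries, and the quadruple mutant above all others. The quadruple mutant averaged 15.2 ± 1.19 and Col-0 8.02 ± 0.777, a ratio of 1.9 (log2 0.85, SE 0.11, adjusted p = 0.000312), and kept its call in all 15 alternatives. In rrm1 the mean was 12.4 ± 1.17 (log2 0.57, SE 0.11, adjusted p = 0.0164). The rrm1 call was lost in 4 of 15 alternatives, among them the fit without the filter on low values (adjusted p = 0.075). The others left out rrm1 replicate 2 (log2 0.48) or Col-0 replicate 3 (log2 0.65) or 4 (log2 0.48). In pdp1/2/3 the mean was 10.9 ± 0.87 (log2 0.40, SE 0.11, adjusted p = 0.0277). This call was lost in 3 of 15 alternatives. Without the filter on low values the adjusted p was 0.0701. The others left out pdp1/2/3 replicate 2 (log2 0.32) or Col-0 replicate 4 (log2 0.31). The quadruple mutant did not differ past the threshold from pdp1/2/3 (log2 0.45, adjusted p = 0.0553) or from rrm1 (log2 0.28, adjusted p = 0.159).

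FDM1 was called in pdp1/2/3 and the quadruple mutant. FDM1 (AT1G15910) is the gene most like FDM2 in sequence: 11.1% of its 50-base windows occur in FDM2 and 12.9% of those of FDM2 in FDM1, so some reads could have been assigned to either. FDM1 was at 25.2 and 25.3 CPM in fve, against 23.3 and 26.3 in Col-0 (log2 0.03, adjusted p = 0.926). In the second table FDM1 stood at 22.6 and 24.4 CPM in rrm1, at 27.9 and 31.8 in pdp1/2/3, at 30.5 and 24.3 in the quadruple mutant and at 21.4 and 20.9 in Col-0. FDM1 rose in pdp1/2/3, with a mean of 29.9 ± 2.74 against 21.2 ± 0.409 in Col-0 (log2 0.48, adjusted p = 0.00864), lost without pdp1/2/3 replicate 2 (0.0717) or Col-0 replicate 4 (0.0649). FDM1 also passed in the quadruple mutant (mean 27.4 ± 4.38, log2 0.35, adjusted p = 0.0404), and not in rrm1 (log2 0.14, adjusted p = 0.507). The call in the quadruple mutant was lost in 8 of 15 alternatives, among them without rrm1 replicate 1 (0.0516) or 2 (0.0514), quadruple-mutant replicate 1 (0.254) or Col-0 replicate 3 (0.14) or 4 (0.176). IDN2, at 36.7 CPM in both fve libraries, against 32.5 and 34.6 in Col-0, and KTF1, a protein that links AGO4 to Pol V transcripts, were not called in any comparison.

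The 250 bases upstream of FDM2 (TAIR10.1, chr4:167247-167496, plus strand) are shown because this gene and MORC2 were called in the same mutants and the upstream bases of MORC2 lie inside MORC1. Capitals mark the longest word that occurs more than once.
FDM2 upstream: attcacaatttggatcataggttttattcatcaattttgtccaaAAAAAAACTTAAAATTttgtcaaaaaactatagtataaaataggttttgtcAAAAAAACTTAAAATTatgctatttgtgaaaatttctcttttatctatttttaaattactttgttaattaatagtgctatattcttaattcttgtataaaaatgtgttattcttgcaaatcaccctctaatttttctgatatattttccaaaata
The word has 16 bases and occurs 2 times. Of 37897 such windows upstream of annotated genes, 4.36% hold a repeated word of this length or more. A telo-box (AAACCCTA), a G-box (CACGTG) or a GA repeat (GAGAGAGA), searched on both strands and present in 4.75%, 5.39% and 4.7% of all windows, was not found in this window. Among the members the telo-box was found upstream of RDM1 and MORC7, the G-box upstream of CMT2 and the GA repeat upstream of RDM1.

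CLSY2 was the single member called among those that recruit Pol IV. CLSY1 to CLSY4 are SNF2-type remodelling proteins that guide Pol IV to different sets of loci, and SHH1 brings it to methylated histone H3. CLSY2 (AT5G20420, chromosome 5, 6898790 to 6904242, minus strand) stood at 2 and 2.1 CPM in rrm1, at 2.52 and 3.32 in pdp1/2/3, at 2.94 and 3.70 in the quadruple mutant and at 2.1 and 2.07 in Col-0. The pdp1/2/3 and quadruple-mutant libraries lay above the other 4. The quadruple mutant averaged 3.32 ± 0.536 and Col-0 2.08 ± 0.0267 (log2 0.48, SE 0.15, adjusted p = 0.0469), and pdp1/2/3 did not pass (log2 0.34, adjusted p = 0.152). The call was lost in 9 of 15 alternatives, among them without rrm1 replicate 1 (0.0626) or 2 (0.0628), quadruple-mutant replicate 2 (0.283) or Col-0 replicate 3 (0.162) or 4 (0.169). In the first table CLSY2 was at 3.43 and 3.05 CPM in fve, at 1.97 and 1.93 in suvh2/9 and at 1.69 and 2.06 in Col-0. The fve libraries lay above the other 4, but the difference did not pass (log2 0.56, adjusted p = 0.0792), except without the mean-variance trend (0.0483).

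The 250 bases upstream of CLSY2 (TAIR10.1, chr5:6904243-6904492, printed on the minus strand, 5′ to 3′) are shown for a tandem repeat. Capitals mark the longest word that occurs more than once.
CLSY2 upstream: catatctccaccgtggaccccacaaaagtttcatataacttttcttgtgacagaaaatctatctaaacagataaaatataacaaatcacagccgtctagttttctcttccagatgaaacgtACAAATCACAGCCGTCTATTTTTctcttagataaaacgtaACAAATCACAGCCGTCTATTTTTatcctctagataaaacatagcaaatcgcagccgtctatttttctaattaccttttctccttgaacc
This word has 23 bases and occurs 2 times, and 1.19% of all windows hold a repeated word of this length or more. Its inner 10 bases CAGCCGTCTA occur 4 times in the window, and 0.00792% of all windows hold them on either strand.

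The other recruiters of Pol IV did not pass. CLSY1 was 7.23 to 8.16 CPM in every library except suvh2/9 replicate 2, at 6.78. CLSY4 was at 1.02 and 0.923 CPM in fve, against 1.65 and 1.83 in Col-0, without overlap (log2 -0.47, adjusted p = 0.199), and was under the filter in the second table. CLSY3 was under the filter in the first table, at 1.39 and 0.83 CPM in fve and 0.688 and 0.703 in Col-0. SHH1 was at 7.23 and 7.77 CPM in pdp1/2/3 and at 8.72 and 9.85 in Col-0 (log2 -0.27, adjusted p = 0.0987).

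**Figure D4:**
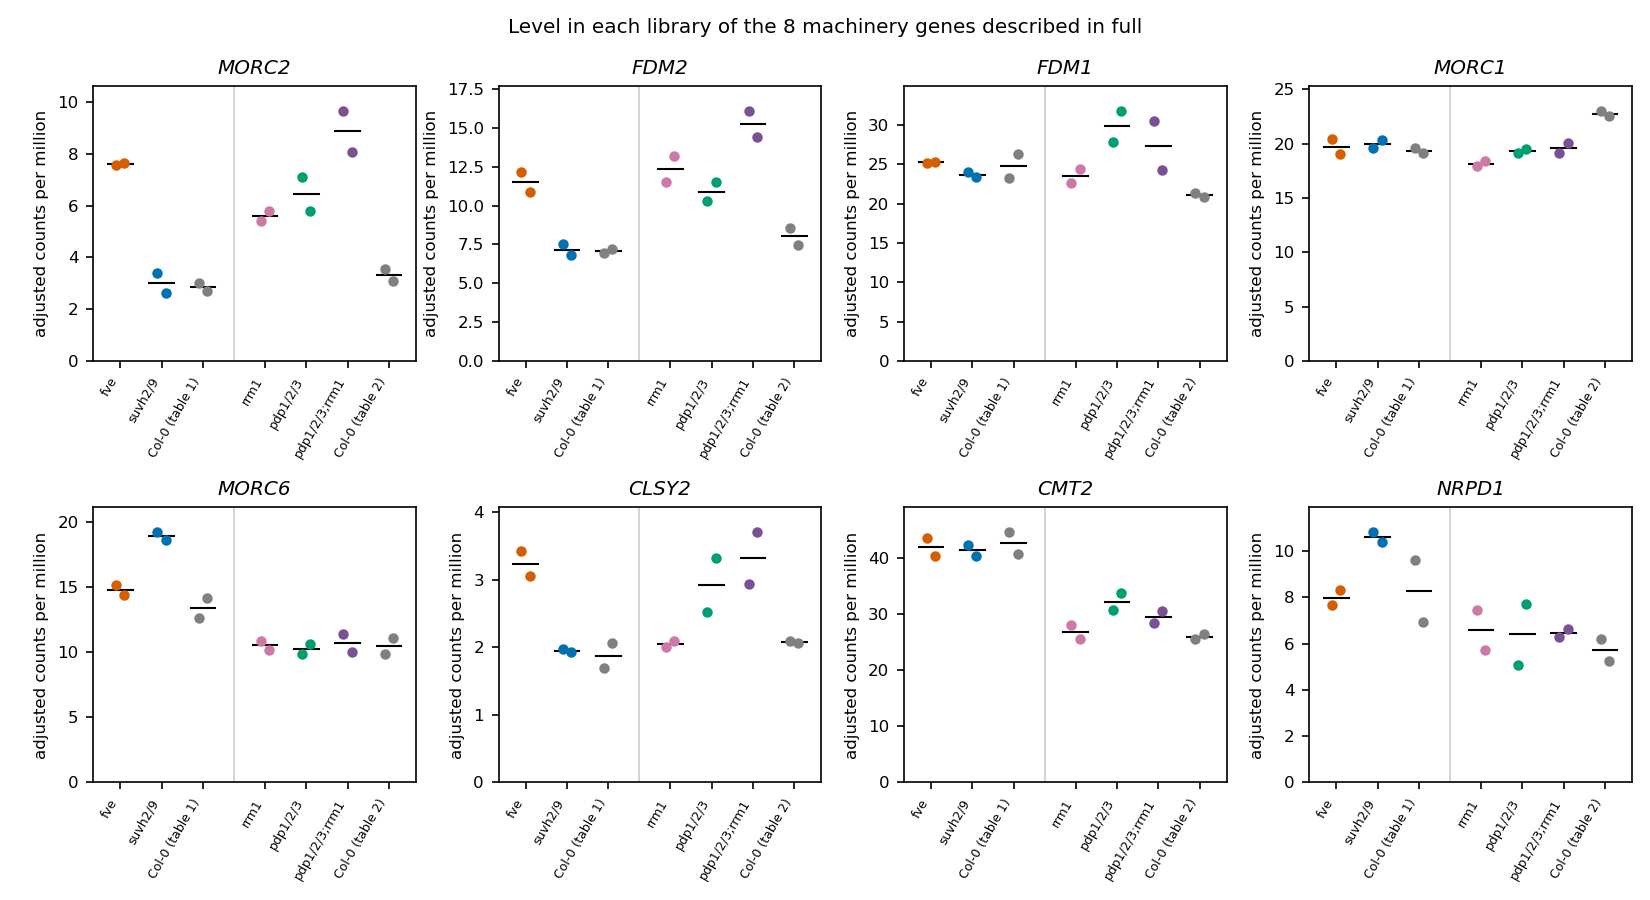
Level in CPM (y axis) of 8 members in each library, by group, with the mutants of a table left of its Col-0 and a grey line between the tables. Points are libraries and black lines means of 2. Outside suvh2/9, MORC2 and FDM2 are higher in both libraries of each mutant than in both Col-0 libraries of its table, and MORC6 is higher in both suvh2/9 libraries.

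None of the 5 Pol IV and Pol V genes was called in any of the 5 mutants (limma, with NRPE5 in fve and NRPD1 in suvh2/9 at an unadjusted p below 0.05). NRPD1, the largest subunit of Pol IV, was at 10.8 and 10.4 CPM in suvh2/9, against 9.59 and 6.94 in Col-0. Both suvh2/9 libraries lay above Col-0, but the mean of 10.6 ± 0.345, against 8.26 ± 1.87, did not pass (log2 0.34, SE 0.13, adjusted p = 0.634). NRPE1, the largest subunit of Pol V, was at 20.2 and 20.8 CPM in fve, at 17.9 and 21.0 in suvh2/9 and at 20.4 and 18.4 in Col-0. Its difference was 0.08 in fve (95% interval -0.13 to 0.28) and 0.00 in suvh2/9 (-0.20 to 0.20). NRPE5, a subunit of Pol V, was at 12.7 and 14.5 CPM in fve, against 17.7 and 15.8 in Col-0 (log2 -0.28, adjusted p = 0.198). The shared subunit gene NRPD2/NRPE2 and RDM4, which helps assemble the polymerases, differed by -0.13 to 0.15 from Col-0 in all 5 mutants. Of the windows of NRPD2/NRPE2, 8.39% also occur in AT3G18090.

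Genes of small RNA synthesis and the Argonautes were likewise not called in any comparison (limma, with RDR2 alone at an unadjusted p below 0.05, in suvh2/9 against Col-0 and in the quadruple mutant against rrm1). RDR2 was at 12.4 and 12.5 CPM in suvh2/9, at 11.9 and 11.8 in fve, against 10.6 and 10.5 in Col-0, so that both mutants lay above Col-0 (log2 0.22 in suvh2/9 and 0.15 in fve, adjusted p = 0.673 and 0.484). In rrm1 the differences of RDR2, DCL3 and HEN1 were -0.20, -0.20 and -0.15. AGO4 was at 82.8 and 77.3 CPM in fve, against 77.8 and 76.8 in Col-0, a difference of 0.05 (95% interval -0.08 to 0.18), and lay between -0.05 and 0.06 in all 5 mutants. AGO6 differed by -0.14 to 0.12. AGO9, an Argonaute known from reproductive tissue, was under the filter in both tables, at 0.603 and 0.554 CPM in fve, against 0.321 and 0.281 in Col-0 (adjusted p = 0.247 in a fit without the filter).

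The DDR complex and SUVR2 gave no call either (limma, with SUVR2 alone at an unadjusted p below 0.05, in fve and in pdp1/2/3). DRD1, DMS3 and RDM1 form the complex that helps Pol V transcribe, and SUVR2 is an inactive relative of histone methyltransferases that works with remodellers. DRD1 was at 11.2 CPM in both fve libraries, at 11.6 and 10.2 in suvh2/9 and at 12.7 in each Col-0 library (log2 -0.17 and -0.21, adjusted p = 0.486 and 0.759). SUVR2 was at 16.1 and 15 CPM in fve, against 13.3 and 11.8 in Col-0 (log2 0.29, adjusted p = 0.274). Exons of a gene on the opposite strand cover 68.4% of the exon bases of RDM1 and 54.6% of those of DMS3, and the strand of the libraries is not given in the sources used here, so their reads and those of that gene cannot be told apart.

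Of the methyltransferase genes among the members, CMT2 alone was called, in pdp1/2/3. CMT2, which methylates long heterochromatic transposons, stood at 30.7 and 33.7 CPM in pdp1/2/3, at 28.4 and 30.6 in the quadruple mutant, at 28.0 and 25.6 in rrm1 and at 25.5 and 26.4 in Col-0. Both pdp1/2/3 libraries lay above both Col-0 libraries. The mean was 32.2 ± 2.14 in pdp1/2/3 and 26.0 ± 0.583 in Col-0 (log2 0.30, SE 0.08, adjusted p = 0.0268), and the call was lost in 4 of 15 alternatives, among them without pdp1/2/3 replicate 2 (0.167) or Col-0 replicate 3 (0.159) or 4 (0.101). The quadruple mutant did not pass (log2 0.18, adjusted p = 0.166).

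DRM2, the main de novo methyltransferase, was at 14.2 and 16.4 CPM in fve, against 15.5 and 14.6 in Col-0 (log2 0.02, 95% interval -0.18 to 0.23). DRM1 was under the filter, with 0 to 0.0938 CPM in all 14 libraries, each under the level that a count of 0 allows. MET1, the CG methyltransferase, was at 63.4 and 67.3 CPM in fve, against 65.6 and 64.7 in Col-0 (log2 0.00, 95% interval -0.14 to 0.15) and lay between -0.07 and 0.11 in all 5 mutants. CMT3 was at 23.3 CPM in both rrm1 libraries and at 20.4 and 19.7 in Col-0 (log2 0.21, adjusted p = 0.259). Its interaction of rrm1 and pdp1/2/3 was -0.40 (adjusted p = 0.257), and no member passed for the interaction.

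DDM1 and the VIM genes, whose proteins recognise hemimethylated DNA, did not pass. DDM1 differed by -0.20 to 0.00 from Col-0 in the 5 mutants. VIM1 was at 17.3 and 21.2 CPM in pdp1/2/3, at 18.5 and 20.3 in the quadruple mutant and at 22.6 and 23.2 in Col-0. All 4 of these mutant libraries lay below Col-0 (log2 -0.25 and -0.23, adjusted p = 0.115 and 0.136). VIM2 shares 67.2% of its 50-base windows with other genes, mostly AT1G66040, and VIM3 14.7%, so their counts are uncertain. VIM2 was under the filter in the second table, at 0.891 and 1.30 CPM in pdp1/2/3 and at 0.461 and 0.582 in Col-0 (log2 0.45, adjusted p = 0.0379 in a fit without the filter).

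Between mutants few members differed. In fve against suvh2/9 the calls were MORC2 and FDM2, 2 of 35, beside 2.06% of all genes. In the quadruple mutant against rrm1 MORC2 was the single call, 1 of 34 (2.94%), beside 7.96% of all genes. In the quadruple mutant against pdp1/2/3 limma called 0 of 34, beside 2.96% of all genes, with 4 at an unadjusted p below 0.05. For the interaction limma called 0 of 34, beside 0.301% of all genes, with 2 at an unadjusted p below 0.05.

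Other genes of the pathway were read from 2 lists. Of 22 tested genes in a list of 23 other RdDM and small RNA genes, none was called in fve (limma, 4 at an unadjusted p below 0.05), and in suvh2/9 the single call was the mutated SUVH9. In rrm1 SUVH9 was the single call, and was lower (log2 -0.29, adjusted p = 0.0389). A single call is 4.55% of the tested genes of the list, against 0.571% of all genes in suvh2/9 and 4.03% in rrm1. In fve 1.89% of all genes were called. In pdp1/2/3 the calls were 2 higher (AGO3 and FDM4) and 1 lower (SUVH9), and in the quadruple mutant 1 higher (AGO3) and 2 lower (RDR6 and SUVH9). That is 13.6% of the tested genes of the list in each, against 18.3% and 17.8% of all genes tested. SUVH9 differed by -0.24 in pdp1/2/3 and -0.23 in the quadruple mutant (adjusted p = 0.0331 and 0.0387), FDM4 by 0.39 in pdp1/2/3 (adjusted p = 0.0443), and RDR6, which makes double-stranded RNA in other silencing routes, by -0.35 in the quadruple mutant (adjusted p = 0.0158). AGO3, a relative of AGO2, averaged 4.38 ± 0.919 CPM in pdp1/2/3, 5.48 ± 0.203 in the quadruple mutant and 2.58 ± 0.126 in Col-0 (log2 0.58 and 0.86, adjusted p = 0.0129 and 0.00132). AGO3 was also higher in fve than in suvh2/9, at 2.45 ± 0.254 against 1.17 ± 0.0639 CPM (log2 0.66, adjusted p = 0.0473), and in the quadruple mutant than in rrm1 (log2 0.50, adjusted p = 0.0496). The polymerase subunit gene NRPB9B was higher in the quadruple mutant than in pdp1/2/3 (log2 0.75, adjusted p = 0.0393), and SWI3B, of a SWI/SNF remodelling complex, higher than in rrm1 (log2 0.31, adjusted p = 0.0323).

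Of 27 tested genes in a list of 32 other methylation, demethylation and silencing genes, 1 was called in fve, 2 in suvh2/9, 0 in rrm1 (limma, 4 at an unadjusted p below 0.05), 2 in pdp1/2/3 and 2 in the quadruple mutant. These are 3.7% of the tested genes of the list in fve and 7.41% in each of the other mutants with calls. Over all genes the shares were 1.89% in fve, 0.571% in suvh2/9, 4.03% in rrm1, 18.3% in pdp1/2/3 and 17.8% in the quadruple mutant. MET2a, a relative of MET1, averaged 1.76 ± 0.125 CPM in fve, 3.22 ± 0.0932 in suvh2/9 and 0.511 ± 0.205 in Col-0 (log2 0.87 and 1.49, adjusted p = 0.014 and 0.000496). ROS1, the demethylase gene whose level is known to follow RdDM, averaged 4.75 ± 0.737 CPM in suvh2/9 and 60.4 ± 0.615 in Col-0. ROS1 was higher in pdp1/2/3 (81.9 ± 5.42) and the quadruple mutant (74.6 ± 7.51) than in Col-0 of their table (48.2 ± 1.3; log2 0.75 and 0.62, adjusted p = 5.64e-05 and 0.000274). DNMT2 was called lower in pdp1/2/3 (log2 -0.47, adjusted p = 0.0155) and MBD7, a methyl-CpG-binding protein, higher in the quadruple mutant (log2 0.52, adjusted p = 0.00641).

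Genes of cell division were called in pdp1/2/3 and the quadruple mutant, each against Col-0, at a share near that of all genes. Over all genes, 1.89% were called in fve, 0.571% in suvh2/9 and 4.03% in rrm1. Of the 22 genes of cell division, all tested, 0 were called in these mutants (limma, 1 at an unadjusted p below 0.05 in each). In pdp1/2/3 1 was higher and 3 lower, and in the quadruple mutant 1 was higher and 4 lower, which is 18.2% and 22.7% of the list, against 18.3% and 17.8% of all genes tested. Between mutants, 4 were lower in the quadruple mutant than in rrm1 (18.2%, against 7.96% of all genes). Against pdp1/2/3 1 was higher (4.55%, against 2.96%). Their summed level was 470 to 489 CPM in pdp1/2/3 and 456 to 478 in the quadruple mutant, against 523 to 532 in Col-0. The 5 leaf markers summed to 32721 to 35484 CPM in rrm1, 33272 to 36901 in pdp1/2/3 and 35574 to 37378 in the quadruple mutant, against 37715 to 38546 in Col-0. The 4 root markers summed to 1716 to 2057 CPM in rrm1, 1334 to 1510 in pdp1/2/3 and 1483 to 1505 in the quadruple mutant, against 1598 to 1634 in Col-0. Each mutant library of that table lay below Col-0 in the leaf sum, and in the root sum those of rrm1 lay above it and the others below. The root markers did not move together. Of the 4, 2 were above Col-0 in rrm1 (log2 -0.14 to 0.39), 2 in pdp1/2/3 (-0.20 to 0.29) and 1 in the quadruple mutant (-0.13 to 0.13). None was called in these mutants (limma, with 2 in rrm1 at an unadjusted p below 0.05), so the sums show no shared shift of the list. In the first table the root markers summed to 1513 to 1568 CPM in fve and 1615 to 1844 in suvh2/9, against 1682 to 1690 in Col-0. There 2 of the 4 were above Col-0 in fve (log2 -0.14 to 0.36) and 3 in suvh2/9 (-0.07 to 0.10). The part of any of these 3 lists in the calls of FDM1, FDM2, MORC1, MORC2, CLSY2 and CMT2 was not tested.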

How the data were processed

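Gene levels were measured by RNA-seq in 14 libraries of Arabidopsis thaliana seedlings. Per the submitters' processing notes, HISAT2, featureCounts, edgeR and TAIR10 were used, without stated versions or roles. The authors deposited a normalised signal for each of 32548 genes in 2 tables and give no definition of it. The values look like counts brought to 1 library size, and whole reads could not be recovered, so no count test was run.

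Each value was scaled to 1e+06 of its table's common total (21485094 or 19220337). The test took genes that reached 1 CPM in 2 or more libraries: 19090 in the first table, 35 members among them, and 19241 in the second, with 34 members. CLSY3, AGO9, MORC5 and DRM1 were under this filter in the first table and CLSY4, AGO9, MORC5, DRM1 and VIM2 in the second. The two-sided test was that of limma 3.58.1 under R 4.3.3, by lmFit and eBayes (trend by mean level), on the log2 level with a pseudocount of 1. Each table had 1 fit over all groups, with Benjamini-Hochberg adjustment over all genes tested in a table. There were 9 comparisons. The fits left 3 and 4 residual degrees of freedom, with 8.5 and 7.82 prior ones. The steps were checked on simulated data with the same spread setting for every gene. That check does not show how well small differences of real genes are recovered.

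Gene positions, exon lengths and sequences come from the RefSeq annotation of TAIR10.1, in which all 32548 identifiers were found. Symbols that it does not hold were given by common usage. Members and lists were chosen with earlier results of these data known. Full values are given for members called in any comparison and for the 2 members that differ most in each mutant. Outside the members, FVE, SUVH2, SUVH9 and ROS1 are named, with up to 5 called genes of either pathway list per comparison. The neighbour MORC3 was named after its values were seen. Alternatives were another pseudocount (0.1), no filter, no trend, other scalings, fewer groups in the fit, a replicate block and each library left out. A further one, which leaves out replicate 1 of both rrm1 and the quadruple mutant, was chosen after seeing the data.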

Additional observations from a re-analysis of the deposited data

Results flagged for a closer look

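MORC2 and FDM2 are listed because the effects of 2 mutants of the same table differed when tested directly. MORC2 was higher in fve than in suvh2/9, by 1.11 on the log2 scale (adjusted p = 0.00109, limma), with both fve libraries above both suvh2/9 libraries. FDM2 was higher in fve than in suvh2/9, by 0.62 (adjusted p = 0.00897, limma), again with both fve libraries above both of suvh2/9. MORC2 was higher in the quadruple mutant than in rrm1, by 0.58 (adjusted p = 0.0208, limma), with no overlap between their libraries. The order of the libraries comes from the same values as each test and is no further evidence. The FDM2 call was lost in 3 of 13 alternatives and the call of MORC2 against rrm1 in 5 of 16.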

How the results depend on the processing

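Direction did not reverse for any of the 8 members described in full when a call was involved. Of 1040 recomputed values, 973 kept their side of the threshold, 66 lost a call and 1 gained one. Many of these values belong to members that were not called in the main fit and so could not lose a call. The 973 of 1040 therefore overstates how firm the calls were. Of 130 recomputed counts of members called, 94 stayed within 1.5 times. MORC2 kept its call in every alternative run in fve (13), in fve against suvh2/9 (13), in pdp1/2/3 (15) and in the quadruple mutant (15), as FDM2 did in the quadruple mutant (15). Without the filter on low values the members called were 1 in fve (against 2), 0 in suvh2/9 (against 1), 1 in fve against suvh2/9 (against 2), 0 in rrm1 (against 3), 2 in the quadruple mutant (against 4) and 0 in the quadruple mutant against rrm1 (against 1). Over all genes, that fit called 125 in fve (against 361), 59 in suvh2/9 (against 109) and 183 in fve against suvh2/9 (against 394). It called 270 in rrm1 (against 775), 2639 in the quadruple mutant (against 3427) and 843 in the quadruple mutant against rrm1 (against 1531). In pdp1/2/3 FDM2 lost its call in that fit (adjusted p = 0.0701, limma), and VIM2 passed (0.0379). That fit tests more genes, and the cause was not tested. In suvh2/9 the count was also 0 without the trend and with only the groups compared. With both replicate 1 libraries of rrm1 and of the quadruple mutant left out, an alternative chosen after seeing the data, the count was 1 in rrm1, 2 in the quadruple mutant and 0 in the quadruple mutant against rrm1. Leaving out each library in turn gave 1 to 2 in fve, 0 to 0 in suvh2/9, 1 to 3 in fve against suvh2/9, 0 to 3 in rrm1, 1 to 5 in pdp1/2/3, 2 to 4 in the quadruple mutant and 0 to 1 in the quadruple mutant against rrm1. A group left with 1 library is assumed to vary like the others.

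With the replicate number as a block, the counts were those without it: 2 in fve, 1 in suvh2/9 and 2 in fve against suvh2/9, and with Col-0 left out 0 in the quadruple mutant against pdp1/2/3 and 1 in the same mutant against rrm1. Whether the numbers pair the samples is not given by the labels and cannot be settled with 2 libraries per group. The correlation of deviations between same-numbered libraries ran from 0.01 to 0.20 for the first table and from -0.10 to -0.01 for the second. No block was possible for comparisons with Col-0 in the second table, which shares no number with its mutants.

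With 2 libraries a group, small differences of members were often within the spread, and members under the filter were not tested. The depth before adjustment is not given in the sources used here.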
